A study of Mus musculus with 2 samples.

Results

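The proline and acidic amino acid-rich basic leucine zipper (PAR bZIP) factors *Dbp*, *Tef* and *Hlf*, their competitor *Nfil3*, the transcriptional repressors *Ciart*, *Bhlhe40* and *Bhlhe41*, and the deubiquitinase *Usp2* were examined in regenerating mouse liver. They were taken by gene symbol from the authors' table, in which all 8 were found among 34745 listed genes. One group was male mice heterozygous for a knockout of miR-182-5p (KO), which keep a copy of the microRNA gene, and the other was male wild-type (WT) mice. All mice were 8 to 10 weeks old and had undergone 2/3 partial hepatectomy (PH), in which 70% of the liver is removed, and the livers were sequenced at day 3 after surgery. Poly(A) RNA gave 1 library per genotype. The number of mice behind each library is not given in the sources used here. The operations were done early in the morning, but the hour at which the livers were collected is not given, and with 1 library each the hour of collection and the genotype cannot be told apart.

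All 8 genes are outputs of the circadian clock, the feedback loop in which CLOCK and BMAL1 activate genes through E-boxes and the PER and CRY proteins hold that activity back. DBP, TEF and HLF activate transcription through D-boxes, NFIL3 binds the same sites and represses, and CIART, BHLHE40 and BHLHE41 act back on E-box driven transcription. In the liver the PAR bZIP factors accumulate with a daily rhythm and control genes of drug and lipid metabolism, and the RNA of *Dbp* has one of the widest daily swings known in that organ.

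The mature microRNA that the KO mice lack on one allele is shown with its seed, bases 2 to 8, in capitals, because matches to the seed are the feature by which a microRNA recognises its targets. RefSeq places it at chr6:30165962-30165986 on the minus strand of GRCm38.p6.
miR-182-5p: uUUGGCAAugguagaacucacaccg
In the longest annotated 3′ UTR of each of the 8 genes, a match of 7 bases or more to this seed (the words TTGCCAA and TGCCAAA) was found in *Hlf* and in *Bhlhe41* and in none of the other 6 genes. *Hlf* held 2 matches, at bases 985 and 3955 of its 4223-base UTR, and *Bhlhe41* held 1, at base 1092 of 4609. The UTRs of the other 6 genes were shorter, from 261 bases for *Ciart* and 323 for *Dbp* to 3182 for *Tef*. The matches are shown in capitals with the bases around them.
Hlf site 1: tcagtatgtaTGCCAAAaacat
Hlf site 2: aatgcatttTTGCCAAAatctg
Bhlhe41 site: tttagtttgTTGCCAAggtagc
Among all tested genes with an annotated 3′ UTR, 19.5% of 12503 held such a match, and the median UTR length was 1130 bases. A match is a description of the sequence and was not examined for binding. The median log2 fold change, KO over WT, was −0.01 for genes with a match and −0.01 for genes without one.

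Reads counted on genes came to 13247497 in KO and 13163348 in WT, of which 13 mitochondrial genes held 51.7% and 31.0%. Libraries were therefore scaled with TMM, which limits the weight of the most abundant genes, and levels are given as TMM-scaled CPM, the count relative to the scaled library size. With total counts in place of TMM, the log2 fold changes of all genes shifted down by a median of 0.60, so a value near 0 changes its sign with the scaling. Genes whose counts in KO and WT came to 10 or more were tested, that is, compared with a 2-fold difference, without a p-value, since 1 library per genotype gives no replicate check. All intervals are exact 95% intervals that cover counting error only. Over genes grouped by the length of their longest coding transcript, the median log2 fold change ran from −0.16 under 1 kb to 0.19 over 8 kb, and it was −0.11 to 0.03 in the length classes of the 7 of the 8 genes that were tested.

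*Dbp* and *Ciart* were more than 2-fold higher in the KO library and *Bhlhe40* more than 2-fold lower. Of the 7 genes with enough counts, 2 were higher, where 9.46% of all 13561 genes tested were, and 1 was lower, where 9.94% were. The other 4, *Tef*, *Hlf*, *Nfil3* and *Usp2*, stayed under 2-fold, and *Bhlhe41* had too few counts. The median log2 fold change of the 7 was 0.27, beside 0.00 over all genes tested, with 4 values above 0 and 3 below. With total counts the median was −0.33, with 3 above 0 and 4 below. In bulk tissue, a change in the number of cells of a type and a change in RNA per cell cannot be told apart. The summed level of 8 hepatocyte markers was 52147 scaled CPM in KO and 52375 in WT, with *Apob* alone among them more than 2-fold lower. *Alb* made up most of these sums, at 31603 and 33090, and the median log2 fold change of the 8 markers was −0.01. For stellate cells the summed level was 127 and 189 over 8 markers, of which 2 were lower. Kupffer cell and macrophage markers summed to 101 and 136 with 2 of 6 lower, and endothelial markers to 52.1 and 60.1 with 1 of 5 lower. Cholangiocyte markers summed to 11.3 and 9.68 with 2 of 4 higher, neutrophil markers to 41.7 and 36.1 with *Ly6g* at 0 in both libraries, and lymphocyte markers to 1.67 and 1.48 with 1 of 2 tested markers higher (*Cd79a*) and *Cd3e* at 0 in the KO library. The part of these cell types in the results was not tested.

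**Figure D1:**
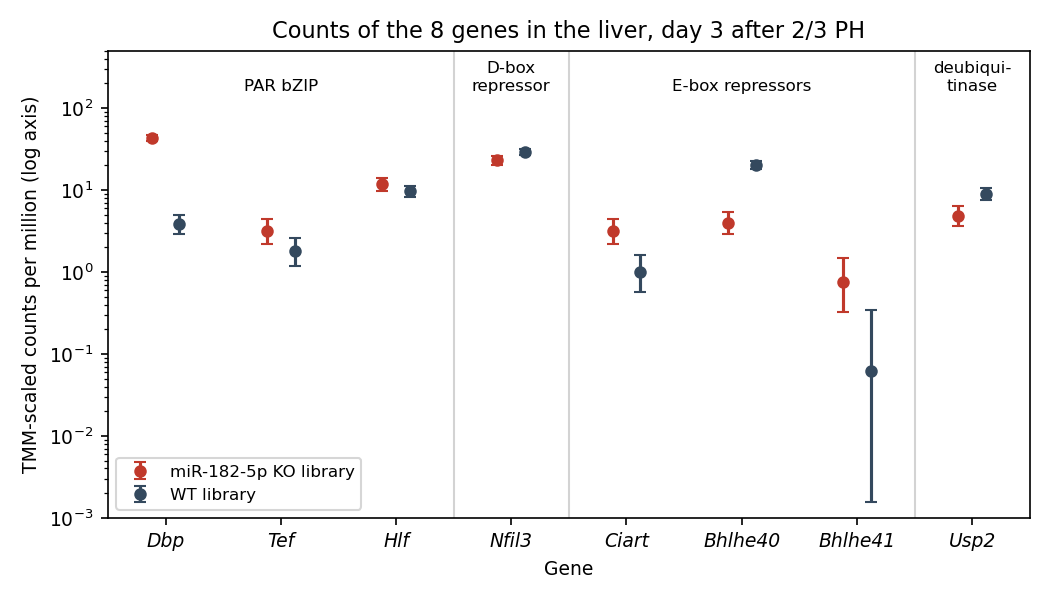
TMM-scaled CPM (log axis) of the 8 genes in the KO library (red) and the WT library (dark blue), 1 library each, grouped by role. Points are the values and bars are exact 95% Poisson intervals, which cover counting error only. *Dbp* is far higher in KO and *Bhlhe40* far higher in WT, while the intervals of *Tef*, *Hlf* and *Bhlhe41* overlap.

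Among the PAR bZIP activators, *Dbp* stood apart from its relatives. *Dbp* (ENSMUSG00000059824, chromosome 7, 45705088 to 45710155) had 462 counts in KO and 62 in WT, or 43.0 scaled CPM (39.1 to 47.1) and 3.82 (2.93 to 4.90). The KO level was 11.1-fold the WT level, a log2 fold change of 3.48 (3.10 to 3.90), which ranked 126 from the highest of the 13561 genes tested. It was 2.88 with total counts and 2.89 with the authors' FPKM (2.76 once a pseudocount of 0.1 was added), and it was past 2-fold under each of the 13 alternatives tried. A stretch of 539 exonic bases, 18.01% of the exon sequence of *Dbp*, overlaps *Sphk2*, a sphingosine kinase gene on the opposite strand, and whether the counting used strand is not given. *Sphk2* itself had 276 counts in KO and 327 in WT, a log2 fold change of 0.35. With TMM the log2 fold change of the summed counts of both genes was 1.52, past 2-fold. Total counts lowered the log2 fold changes by a median of 0.60, which would put this sum under 2-fold.

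*Tef* and *Hlf* stayed under 2-fold, with few counts behind *Tef*. *Tef* (ENSMUSG00000022389, chromosome 15, 81802421 to 81826861), an activator of the same family first known from the pituitary, had 34 counts in KO and 29 in WT, or 3.16 scaled CPM (2.19 to 4.42) and 1.79 (1.198 to 2.57). Its log2 fold change was 0.81 (0.06 to 1.59), an interval that reaches past 2-fold, and 0.22 with total counts. *Gm17597*, an antisense gene over 193 of its exonic bases, had 0 counts in both. *Hlf* (ENSMUSG00000003949, chromosome 11, 90336536 to 90390895), named for its part in a leukemia fusion gene, had 126 and 157 counts, or 11.7 scaled CPM (9.76 to 13.9) and 9.68 (8.23 to 11.3). Its log2 fold change was 0.27 (−0.07 to 0.62) with TMM and −0.33 with total counts, so its direction was set by the scaling. The interval of *Hlf* holds 0, and *Dbp* had the widest difference of the family. *Hlf* has 2 seed matches of miR-182-5p in its 3′ UTR and *Dbp*, whose annotated UTR is only 323 bases long, has none. Whether the microRNA acts on either gene was not tested.

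*Nfil3*, the repressor that competes with the PAR bZIP factors at D-boxes, was close in both libraries. The gene (ENSMUSG00000056749, chromosome 13, 52967209 to 52981073) had 248 counts in KO and 470 in WT, or 23.1 scaled CPM (20.3 to 26.1) and 29.0 (26.4 to 31.7). The log2 fold change was −0.33 (−0.56 to −0.10), and −0.93 with total counts, below 0 but under 2-fold with either scaling.

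The ratio of activator to repressor counts within a library does not depend on any scaling of the libraries, but it does depend on gene length. The summed counts of *Dbp*, *Tef* and *Hlf* were 622 in KO and 248 in WT, so that they were 2.51 times the *Nfil3* counts in KO and 0.528 times in WT. On the log2 scale this ratio was 2.25 higher in KO (1.93 to 2.56). Most of the shift lay with *Dbp*, which made up 74.3% of the counts of the 3 activators in KO and 25.0% in WT. These sums are not corrected for exon length, which was 2993 bases for *Dbp*, 7867 for *Tef*, 6681 for *Hlf* and 2026 for *Nfil3*. The summed ratios, their shift and the shares would therefore differ per kb of exon. The change in the ratio of a single gene to another would not. The ratio of *Dbp* to *Nfil3* was 1.86 in KO and 0.132 in WT, a log2 difference of 3.82 (3.37 to 4.28). It was smaller for *Tef* to *Nfil3*, at 1.15 (0.36 to 1.95), and for *Hlf* to *Nfil3*, at 0.60 (0.19 to 1.02). Within the family, *Dbp* moved against *Tef* by 2.67 (1.79 to 3.53) and against *Hlf* by 3.21 (2.68 to 3.75), and *Tef* and *Hlf* could not be separated at this depth (0.55, −0.30 to 1.40).

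**Figure D2:**
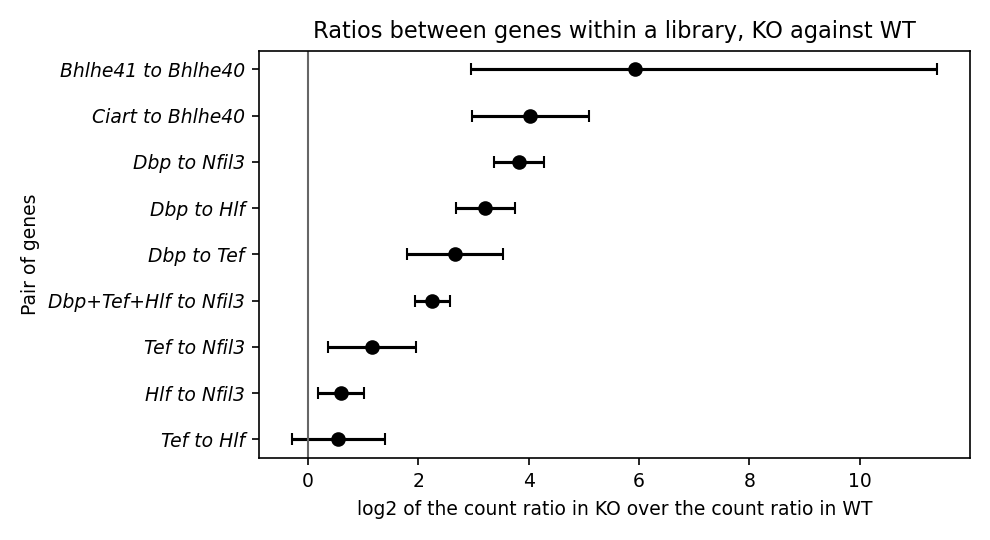
For each pair of genes, the log2 of the count ratio in the KO library over the same ratio in the WT library, with exact 95% conditional intervals for counting error. These values are the same under every scaling of the libraries, and 8 of the 9 intervals lie above 0, the exception being *Tef* to *Hlf*.

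The 3 E-box repressors did not move together. *Ciart* (ENSMUSG00000038550, chromosome 3, 95878503 to 95882251), also called Chrono, a repressor of CLOCK and BMAL1, had 34 counts in KO and 16 in WT, or 3.16 scaled CPM (2.19 to 4.42) and 0.987 (0.564 to 1.60). It was 3.12-fold higher in KO, a log2 fold change of 1.64 (0.78 to 2.64). With total counts the value was 1.06 and with the authors' FPKM 1.08, both past 2-fold. Adding a pseudocount of 0.1 to those FPKM gave 0.87, which is under it. *Ciart* shares 14.7% of its 51-base words with *Gm9176*, which was not analysed here, and *C920021L13Rik*, an antisense gene that overlaps it in no exon, had 9 counts in KO and 11 in WT. The counts of *Ciart* are few, and the lower end of the interval is itself under 2-fold.

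*Bhlhe40* (ENSMUSG00000030103, chromosome 6, 108660629 to 108666925), also called Dec1, a basic helix-loop-helix repressor that binds E-boxes, fell. It had 43 counts in KO and 328 in WT, or 3.998 scaled CPM (2.89 to 5.39) and 20.2 (18.1 to 22.5). The KO level was 5.02-fold lower, a log2 fold change of −2.33 (−2.83 to −1.88), which ranked 362 from the lowest. It was −2.93 with total counts and more than 2-fold lower with each scaling. An antisense gene that overlaps 118 of its exonic bases, *0610040F04Rik*, had 3 counts in each library.

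*Bhlhe41* (ENSMUSG00000030256, chromosome 6, 145858243 to 145865558), also called Dec2, its closest relative, was barely detected. It had 8 counts in KO and 1 in WT, or 0.744 scaled CPM (0.321 to 1.47) and 0.0617 (0.00156 to 0.344), and its 9 counts in all put it below the limit for a test. The log2 ratio was 2.98 with a counting interval of 0.69 to 9.06, so its size is not known. *Gm43909*, on the opposite strand, overlaps 1280 exonic bases of *Bhlhe41* and had 0 counts in both. Against each other, the counts of *Ciart* and *Bhlhe40* stood at 0.791 in KO and 0.0488 in WT, a log2 difference of 4.02 (2.98 to 5.08) that no scaling alters. For *Bhlhe41* against *Bhlhe40* the difference was 5.93 (2.95 to 11.4), which places the paralogs apart even with the few counts of *Bhlhe41*.

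*Usp2* (ENSMUSG00000032010, chromosome 9, 44067021 to 44095627), a deubiquitinase whose RNA cycles in many tissues and whose protein acts on clock components, had 52 counts in KO and 145 in WT, or 4.84 scaled CPM (3.61 to 6.34) and 8.94 (7.55 to 10.5). The intervals do not overlap. Its log2 fold change was −0.88 (−1.37 to −0.42), under 2-fold, but −1.48 with total counts and −1.49 with the authors' FPKM, which are past it. *Gm49380* and *Gm39325*, on the opposite strand over 200 of its exonic bases, were not analysed here.

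**Figure D3:**
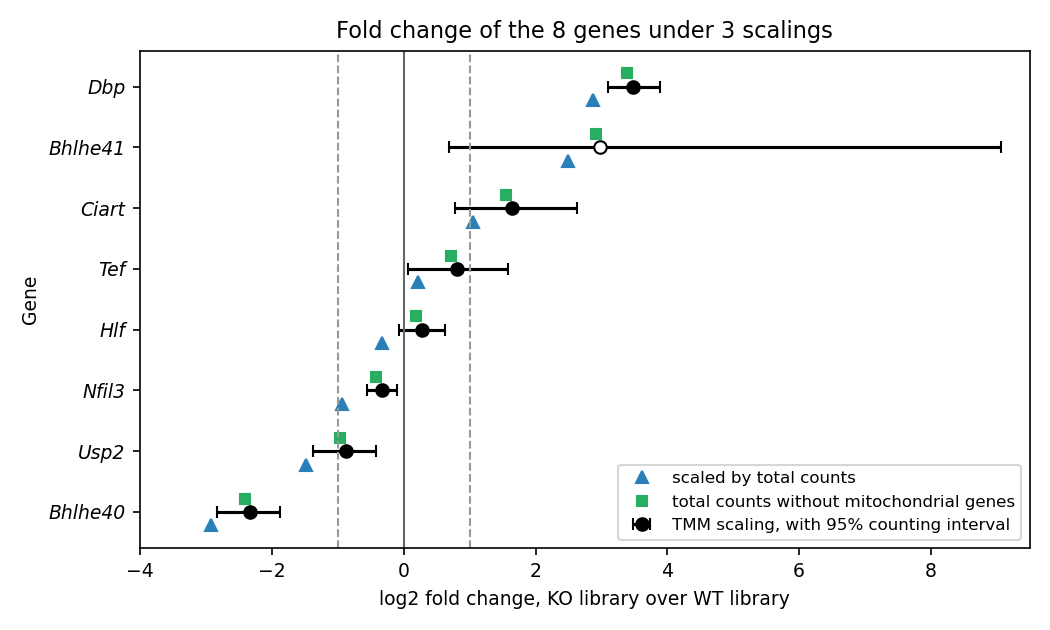
The log2 fold change of the 8 genes, KO library over WT library. Black points are TMM-scaled values with exact 95% counting intervals (open for *Bhlhe41*, which had too few counts to be tested), blue triangles are scaled by total counts and green squares by total counts without the mitochondrial genes. Dashed lines mark 2-fold. A scaling moves all genes by nearly the same amount, so their order is kept in the 3 scalings by construction. *Hlf* lies on opposite sides of 0.

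Sorted by log2 fold change with the prior count of 0.5, the 8 genes ran *Dbp*, *Bhlhe41*, *Ciart*, *Tef*, *Hlf*, *Nfil3*, *Usp2* and *Bhlhe40*. The differences below are from raw counts without the prior count. On these, *Dbp* minus *Bhlhe41* was −0.10 (−5.60 to 2.84), so the order of the first 2 genes is not settled. From *Dbp* down to *Hlf*, the interval of the difference between each gene and the next held 0, as for *Ciart* and *Tef* at 0.86 (−0.35 to 2.09). Below *Hlf* the steps were beyond counting error. *Hlf* lay 0.60 above *Nfil3* (0.19 to 1.02), *Nfil3* 0.56 above *Usp2* (0.03 to 1.10), and *Usp2* 1.45 above *Bhlhe40* (0.77 to 2.14).

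The order of the levels themselves, taken per kilobase of exon in GENCODE M21 so that genes of different length can be compared, differed between the libraries. In KO the highest was *Dbp* at 14.4 scaled CPM per kb (13.1 to 15.7), followed by *Nfil3* at 11.4 (10.0 to 12.9). Then came *Hlf* at 1.75, *Ciart* at 1.398, *Usp2* at 1.004 and *Bhlhe40* at 0.8498 scaled CPM per kb, where each interval overlapped the next, and then *Tef* at 0.402 and *Bhlhe41* at 0.111, which stood clear of the gene before them. In WT the highest was *Nfil3* at 14.3 scaled CPM per kb (13.04 to 15.7), followed by *Bhlhe40* at 4.30 (3.85 to 4.79). Below them the intervals of *Usp2* at 1.86, *Hlf* at 1.45 and *Dbp* at 1.28 scaled CPM per kb overlapped in turn, as did those of *Ciart* at 0.436 and *Tef* at 0.227, while *Bhlhe41* at 0.00918 rested on a single count. *Dbp* thus had rank 1 in KO and rank 5 in WT, and *Bhlhe40* rank 6 and rank 2. Among all genes tested, the level of *Dbp* per kb was at percentile 88.4 in KO and 41.5 in WT, that of *Bhlhe40* at 31.9 and 70.0, and that of *Nfil3* at 86.2 and 87.8. *Tef* was low in both, at percentile 18.1 and 11.03.

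**Figure D4:**
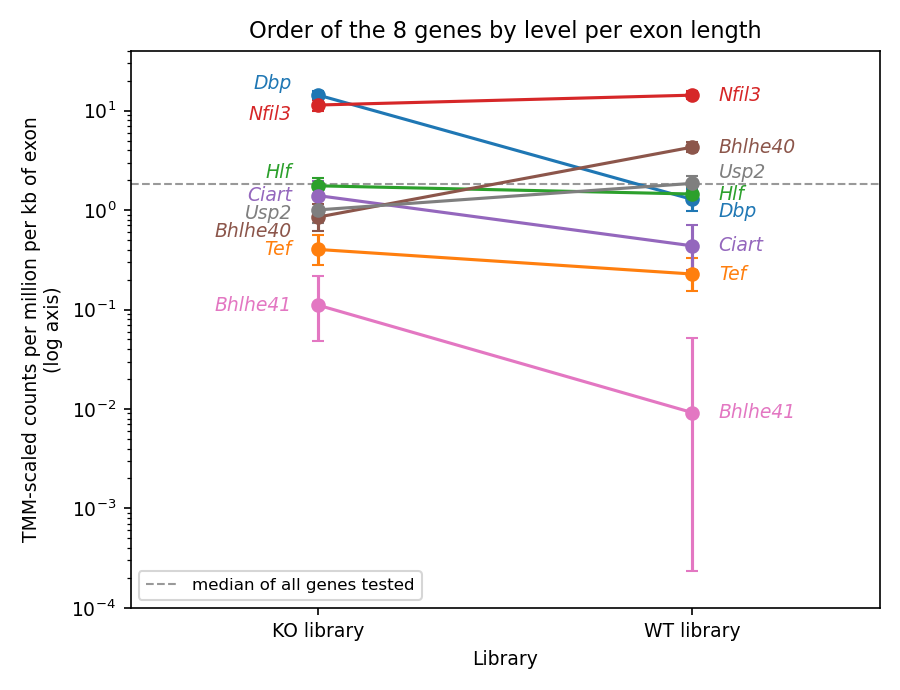
TMM-scaled CPM per kb of exon (log axis) of each of the 8 genes in the KO and WT libraries, with exact 95% Poisson intervals for counting error. The dashed line is the median of all genes tested, 1.83 in KO and 1.82 in WT. *Dbp* crosses *Hlf*, *Usp2*, *Bhlhe40* and *Nfil3* between the libraries, while the line of *Nfil3* is nearly level.

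Promoter sequences were searched because E-boxes are sites at which CLOCK and BMAL1 act and members of the set are targets of the clock. Only the motifs named below were searched, so other sites of clock factors were not covered. RefSeq gave windows of 250 bases before the start site for 7 of the 8 genes, 8 windows in all (2 for *Tef*). *Bhlhe40* was not among them. The motifs, read on both strands, were the E-box CACGTG (6.02% of 32851 windows), the related CACGTT (3.85%), the D-box TTANGTAA (2.06%) and the cyclic AMP response element TGACGTCA (1.55%). E-boxes were found in *Ciart*, *Tef* and *Bhlhe41* and in no window of *Dbp*, *Hlf*, *Nfil3* or *Usp2*, which says only that these letters are not in that window. The *Usp2* window (44084670 to 44084919) lies inside the gene, which starts at 44067021 on the plus strand, so the bases before that start were not searched. Of the 250 bases, 91 lay outside annotated exons in the *Dbp* window and 0 in the first *Tef* window. *Ciart* held 3, starting at bases −116, −58 and −44 from the start site, a number reached by 20 of the 32851 windows (0.0609%). The other matches were 1 E-box in each window of *Tef*, at −127 and −138, 1 in *Bhlhe41* at −153, and 1 cyclic AMP response element in *Hlf* at −9. No window of the 8 genes held CACGTT or the D-box.
The window of *Ciart* outside annotated exons, chr3:95882252-95882478 on the minus strand of GRCm38.p6, is shown with its E-boxes in capitals, since it holds the most. The matching stretches of *Bhlhe41* (chr6:145865559-145865670, minus strand) and of the second *Tef* window (chr15:81811164-81811413, plus strand) are shown for comparison, the latter because *Tef* has the same motif with a smaller difference.
Ciart: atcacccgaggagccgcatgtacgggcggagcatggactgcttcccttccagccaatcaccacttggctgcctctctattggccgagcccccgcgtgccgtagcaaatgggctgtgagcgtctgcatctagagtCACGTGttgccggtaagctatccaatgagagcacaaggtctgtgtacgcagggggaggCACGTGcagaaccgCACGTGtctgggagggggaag
Bhlhe41: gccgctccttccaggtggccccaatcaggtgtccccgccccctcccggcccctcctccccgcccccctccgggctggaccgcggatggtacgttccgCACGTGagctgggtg
Tef: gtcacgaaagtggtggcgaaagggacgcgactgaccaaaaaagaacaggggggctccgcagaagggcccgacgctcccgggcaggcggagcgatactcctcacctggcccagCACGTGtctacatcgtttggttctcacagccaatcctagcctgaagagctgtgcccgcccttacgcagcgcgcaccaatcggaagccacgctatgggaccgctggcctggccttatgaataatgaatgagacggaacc
The genes with an E-box in these windows had log2 fold changes of 1.64 (*Ciart*), 0.81 (*Tef*) and, on 9 counts, 2.98 (*Bhlhe41*). *Dbp*, with none, had 3.48. These matches are descriptions and were not examined for binding.

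Beside the 8 genes, the core of the clock was counted from lists of its known genes. Of 5 activators of the loop, 3 were more than 2-fold lower in KO and none higher, and the median log2 fold change was −1.52. Over all genes tested, 9.94% were lower and 9.46% higher. *Arntl*, which encodes BMAL1, had 50 counts in KO and 218 in WT (log2 fold change −1.52), *Rora*, an activator of *Arntl*, had 126 and 576 (−1.60), and *Npas2*, a partner of BMAL1, had 2 and 56 (−3.97, counting interval −7.30 to −2.29). Of 7 repressors, 4 were higher and none lower, and the median was 1.252. *Nr1d1*, the repressor of *Arntl* also called REV-ERBα, had 534 counts in KO and 129 in WT (2.64), *Nr1d2* had 507 and 320 (1.255), *Per3* had 153 and 51 (2.16) and *Per2* 285 and 180 (1.252). With total counts 2 repressors were higher and 1 lower, since *Nr1d2* and *Per2* were then at 0.65 and *Cry1* at −1.11 (−0.52 with TMM). Total counts gave 624 higher and 3605 lower over all genes tested. *Dbp* and *Ciart* thus had values of the same sign as these 4 repressors, and *Bhlhe40*, a repressor by its function, had a value of the opposite sign, as the 3 activators did.

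Of 5 kinases and ubiquitin ligases that set the stability of clock proteins, only *Fbxl21* was past 2-fold with TMM, and the median was −0.04. *Fbxl21* was higher, as were 9.46% of all genes tested, with 22 counts in KO and 13 in WT (1.31, counting interval 0.30 to 2.46). With total counts *Fbxl21* was at 0.73, under 2-fold, and *Csnk1e* was at −1.29, past it. Of 3 other E-box driven genes, *Nampt* (0.17) and *Noct* (−0.20) were tested and neither was past 2-fold, and *Wee1* had 1 count in all.

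The next list held 10 genes known to depend on PAR bZIP factors in the liver or to carry D-boxes bound by them. None was more than 2-fold higher in KO and 3 were lower with TMM, beside 1348 lower of all 13561 genes tested. With total counts 7 were lower, where *Por* (−1.23), *Cyp2a4* (−1.17), *Cyp7a1* (−1.45) and *Acot4* (−1.34) joined, beside 3605 lower over all genes. The median log2 fold change of the 10 genes was −0.68, and the log2 fold change of *Dbp* was 3.48. Whether any of the 10 responded to *Dbp* in these livers was not tested. *Cyp2b10*, a drug-metabolising enzyme, had 0 counts in KO and 33 in WT. It was 7.30-fold lower when 3 counts are taken as the floor of the KO library. The counting interval of its log2 fold change, without the floor, ends at −2.49. The acyl-CoA thioesterase genes *Acot1* and *Acot3* had 15 and 3 counts in KO and 122 and 34 in WT (−2.40 and −2.76, the latter with a counting interval of −5.26 to −1.24). *Acot1* shares 23.5% of its 51-base words with *Acot2*, so the division of their reads is uncertain. *Alas1*, the first enzyme of heme synthesis, was at 0.44 and *Cyp2a5* at 0.29, both below 0 with total counts, and *Cyp2a5* shares 30.3% of its words with *Cyp2a4*. *Por*, the electron donor of the cytochromes P450, was at −0.63, and the 7 genes under 2-fold lay between −0.85 and 0.44. *Cyp7a1*, the rate-limiting enzyme of bile acid synthesis, had 326 counts in KO and 887 in WT (−0.85, and −1.45 with total counts, which is past 2-fold). *Fgf21*, which NFIL3 is known to repress, had 2 and 7 counts and was not tested. Of the 5 C/EBP factors, relatives that also bind the sites of PAR bZIP proteins, *Cebpg* fell, with 33 counts in KO and 325 in WT (−2.69), and the other 4 lay between −0.47 and 0.67.

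**Figure D5:**
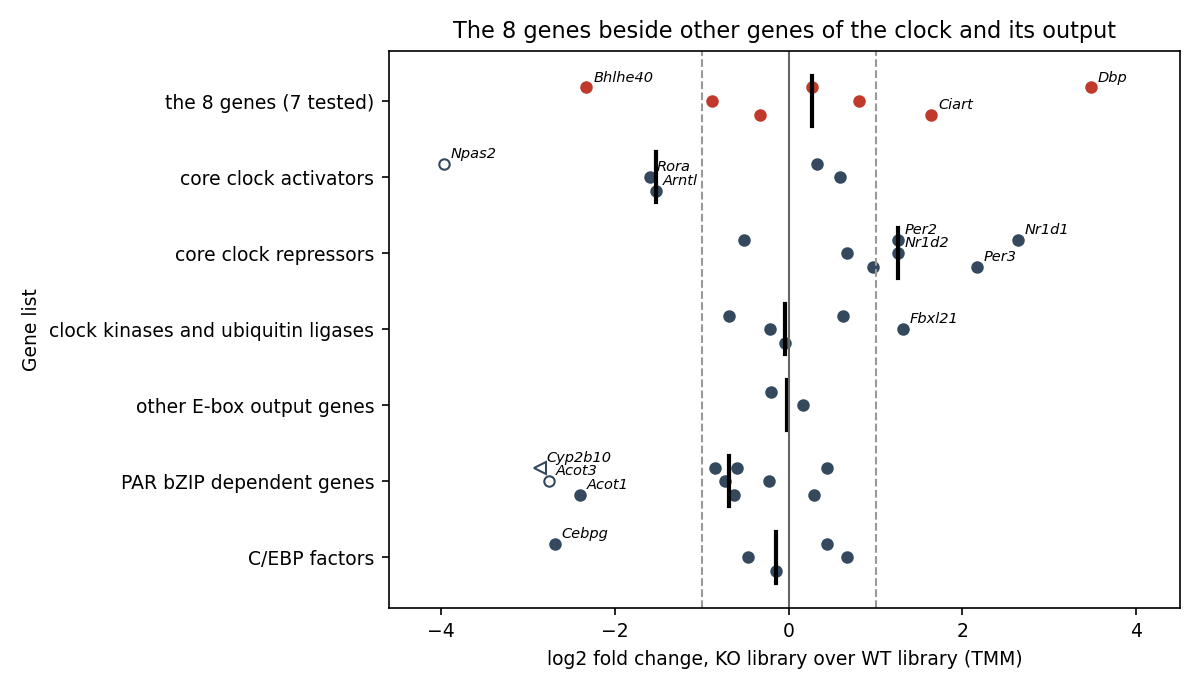
The log2 fold change, KO library over WT library with TMM scaling, of the tested genes among the 8 (red) and in the other lists (dark blue), 1 point per gene. Black bars are medians, dashed lines mark 2-fold, and open circles have 3 counts or fewer in a library. The open triangle is *Cyp2b10* with its KO count set to 3. Points past 2-fold are named. *Dbp* lies furthest right in the plot. The list labelled PAR bZIP dependent genes, which also takes in genes with D-boxes bound by these factors, lies mostly left of 0.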

How the data were processed

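RNA-seq of regenerating liver was analysed, 1 library per genotype. The authors deposited unnormalized counts of reads for each gene, together with FPKM that they scaled by the total of each library. The submitters' processing notes name HISAT2 2.0.4, StringTie, edgeR and the genome build hg38, a human build, while the gene coordinates of the table are those of mouse GRCm38 for 80.8% of the identifiers found in GENCODE M21. The counting program, its annotation and its strand setting are not given in the sources used here.

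Counts were scaled by TMM in edgeR 4.0.16 (R 4.3.3). Log2 fold changes used a prior count of 0.5, for 13561 genes with 10 or more counts in all. A gene was called at 2-fold, with no p-value. Intervals are exact 95% binomial intervals for fold changes, Poisson for levels and conditional for ratios between genes (scipy 1.17.1), and a count of 3 or fewer was taken as the floor. The steps were run on simulated counts with Poisson spread only and no variation between mice. Apart from the changed genes, both simulated libraries had the same make-up. The 200 genes changed by 2 on the log2 scale were drawn from those with at least 50 counts. All 200 were recovered, and 327 of 13567 genes tested were called falsely by fold alone. The simulation checks the steps and does not measure the errors of the real libraries. The other tools were DESeq2 1.42.0, Python 3.11.15, pandas 2.3.3, numpy 2.4.6 and matplotlib 3.10.9. The alternatives were 4 other scalings, the FPKM (pseudocount 0.1, and with none, the latter added after the data had been seen), 5 as the prior count, 1 or 50 as the count minimum, an exact binomial test, and edgeR's exact test with an assumed coefficient of variation of 0.1, 0.2 or 0.4. Promoters and the microRNA are RefSeq sequences. The 8 genes are named whatever their values, genes of the other lists where past 2-fold or by their range, and genes that overlap or share sequence with the 8. No gene was sought for a like pattern, since each has a single difference. The genes and lists were chosen with earlier results of these data known. The lengths of transcripts were compared after the values had been seen. *Mir182* is not among the genes listed and the genotype labels were not checked on it.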

Additional observations from a re-analysis of the deposited data

How the results depend on the processing

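With 1 library per genotype no replicate could be left out. No paired analysis was possible because the genotypes have no second library to pair. Of the 8 genes, the 2 higher calls became 1 with the authors' FPKM plus a pseudocount of 0.1 (2 without the pseudocount) and with edgeR's exact test at an assumed coefficient of variation of 0.2 or 0.4, *Ciart* being lost each time. The 1 lower call became 2 with total counts and with FPKM, with or without the pseudocount, where *Usp2* joined *Bhlhe40*, and 0 at a coefficient of 0.4. With a minimum of 1 count, *Bhlhe41* was also past 2-fold. The median of the tested genes, 0.27, was −0.33 with total counts and −0.33 with FPKM (−0.29 with the pseudocount), all of which keep the mitochondrial share in the scaling. Among the other lists, the 5 higher calls became 2 with total counts, 2 with FPKM either way, 2 at a coefficient of 0.2 and 0 at 0.4, and the 7 lower calls became 14 with total counts, 14 with FPKM (13 with the pseudocount) and 1 at 0.4. Over all genes, 1283 were higher and 1348 lower with TMM (51.2% of calls lower), 624 and 3605 with total counts (85.2%), 624 and 3685 with FPKM (85.5%), 405 and 2934 with FPKM and the pseudocount (87.9%), 1147 and 1525 with total counts without the mitochondrial genes (57.1%), and 59 and 58 at a coefficient of 0.4. The count minimum also moved them, to 2269 and 2763 at 1 count and 656 and 730 at 50. The tests at an assumed coefficient rest on a spread that single libraries cannot measure. Of the 8 genes, no value past 2-fold changed its direction under these settings, and the lists' medians were the same when genes at the floor were set to 3 counts. Low counts limit *Tef*, *Ciart* and *Bhlhe41*.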

Other observations

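The authors' annotation assigns 29 listed genes to the KEGG pathway of circadian rhythm, of which *Bhlhe41* is the only 1 of the 8 genes described here. Of 26 tested, 3 were more than 2-fold higher in the KO library, where 9.46% of all genes tested were, and 3 lower, where 9.94% were. The median log2 fold change of the 26 was −0.02. The 13 of the 29 genes that were in no list above included 11 tested genes, with 0 past 2-fold in either direction and a median of −0.06.

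The gene length behind the authors' FPKM was recovered from the ratio of count to FPKM. For 70.2% of 15482 genes it equalled, within 0.5%, the sum of all distinct exons, in which overlapping exons of different transcripts are counted repeatedly, and for 14.9% it equalled the union of the exons. Among the 8 genes the length used was from 1.00 times the union, for *Nfil3* with its single transcript, to 1.87 times, for *Ciart* with 6, so the FPKM of *Ciart* is understated relative to that of *Nfil3*. For that reason the order of levels was taken from counts per kb of the union and not from the FPKM. The ratio of a gene's FPKM between the libraries does not depend on this length, but a fixed pseudocount added to the FPKM shrinks it more where the length is larger.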
